A study of Mus musculus with 41 samples.

Results

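The response of the spleen to C. Parvum in mice that lack NOS2 was read from 10 of the 41 miRNA arrays of the series. These were 5 arrays of treated and 5 of saline control mice, all C57BL and of the genotype p53+/+NOS2-/-, here called NOS2KO. The study crossed the same treatment with 3 further genotypes, p53+/+NOS2+/+ (WT), p53-/-NOS2+/+ (p53KO) and p53-/-NOS2-/- (DKO), which enter here only where the NOS2KO response is set against theirs. Every group was whole spleen, from which total RNA was extracted and converted to biotin-labelled first strand cDNA. Both NOS2KO groups carry the loss of NOS2 and intact p53, and by their labels they differ by the agent. The labels give no age, dose, route or time after treatment, and do not say how the NOS2 allele was made. A miRNA array carries no probe for the NOS2 messenger RNA, so the knockout could not be checked on these arrays.

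Of 637 probe rows in the table, the 346 with at least 3 measured values in each of the 2 groups were described and tested. All 10 values were present for 268 of them. The other 291 rows were not tested, and 105 of those had no value on any of the 10 arrays.

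C. parvum, a killed bacterial preparation, is a classical stimulant of macrophages and enlarges the rodent spleen. NOS2 is the inducible nitric oxide synthase, which activated macrophages use to make large amounts of nitric oxide. miRNAs are short RNAs that lower the output of messenger RNAs, mainly by pairing through their seed near the 5′ end, so members of a family with a shared seed can act on overlapping sets of messenger RNAs. The mouse spleen holds B and T lymphocytes, macrophages and granulocytes, a stroma with smooth muscle and endothelium, and a red pulp that makes red blood cells under stress. Each of these has miRNAs that are known to be abundant in it. In whole spleen, fewer cells of a type and less RNA per cell cannot be told apart.

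The sequences below carry the families on which the results turn. Each is the mature miRNA of RefSeq (GRCm38.p6), 5′ to 3′, with the seed, bases 2 to 8, in capitals. Most probe names do not state the arm of the hairpin, and the arm printed is the one usually taken as the main product. The miR-29 family, which fell, and the miR-181 family, of which 3 of 4 probes fell, each share 1 seed:
miR-29a-3p: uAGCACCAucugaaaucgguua
miR-29b-3p: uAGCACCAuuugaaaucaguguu
miR-29c-3p: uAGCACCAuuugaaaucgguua
miR-181a-5p: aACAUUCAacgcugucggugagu
miR-181b-5p: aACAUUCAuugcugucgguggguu
miR-181c-5p: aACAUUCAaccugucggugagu

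These are shown because 1 member of the seed family stood apart from its relatives (miR-497 and miR-99b), and miR-221 with miR-222 because both rose:
miR-497a-5p: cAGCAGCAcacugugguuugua
miR-195a-5p: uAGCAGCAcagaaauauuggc
miR-15a-5p: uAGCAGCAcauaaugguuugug
miR-16-5p: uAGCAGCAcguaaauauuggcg
miR-99a-5p: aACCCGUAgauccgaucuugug
miR-100-5p: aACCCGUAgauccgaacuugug
miR-99b-5p: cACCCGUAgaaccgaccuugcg
miR-221-3p: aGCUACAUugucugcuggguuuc
miR-222-3p: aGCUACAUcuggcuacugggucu

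Single results are shown by let-7f-5p, whose fall was larger on the arrays of set 1, and by miR-329-3p and miR-7a-5p, which were among the largest rises:
let-7f-5p: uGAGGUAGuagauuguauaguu
miR-329-3p: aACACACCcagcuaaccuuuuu
miR-7a-5p: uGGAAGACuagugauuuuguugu

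In RefSeq, miR-29a-3p lies at chr6:31062673-31062694 on the minus strand, and the 2 genes of miR-29b-3p place it at chr6:31063025-31063047 on the minus strand and at chr1:195037091-195037113 on the plus strand. miR-29c-3p lies at chr1:195037600-195037621 on the plus strand, so the family sits in 2 pairs of neighbours. miR-497a-5p (chr11:70234730-70234751) and miR-195a-5p (chr11:70235062-70235082) are neighbours on the plus strand, and miR-221-3p (chrX:19146307-19146329) and miR-222-3p (chrX:19146901-19146923) on the minus strand. Positions beyond the seed were compared base by base, with no gap or shift allowed. Pairs that match better when shifted, as miR-221 and miR-222 do, score low on this count. By it, miR-221 and miR-222 are the same at 3 of 15 positions. miR-29a and miR-29c are the same at 13 of 14, and so are miR-99a and miR-100. Whether the probes tell such near copies apart was not tested.

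Levels are given as log2 signals after quantile normalization between arrays, and a change is the treated mean minus the control mean with its standard error (SE). A change passed the test where the adjusted p was under 0.05 in a limma fit of all 8 groups, adjusted over the 346 probes by the Benjamini-Hochberg method. Values per array follow the replicate numbers 1 to 5, which have no order. Most probe names end in -a or -p, which the labels do not explain, and the -a probe is meant wherever no ending is written.

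The 10 arrays did not form 1 technical set. The probe of miR-370 read 11.93, 11.80, 12.21, 11.40 and 11.40 in controls and 9.17, 9.42, 11.51, 11.55 and 12.09 in treated mice. Treated arrays 1 and 2 were therefore in the lower set (set 1, under 10), with 16 arrays of other genotypes, and all other NOS2KO arrays in the higher one (set 2). The labels do not say what the sets are. The changes were therefore also computed with the set as a block, and within set 2, where 3 treated arrays stood against 5 controls, and losses of a described probe's call in either fit are stated. Arrays gave 347 to 408 measured probes, pairs of arrays correlated at 0.878 to 0.975, and no pair held identical values. As deposited, array medians over the probes measured on all arrays were 9.87 to 10.18 in treated and 10.24 to 10.37 in control mice. The median change over all tested probes was 0.06 after quantile normalization, −0.11 as deposited and 0.18 after median centring, so the balance of rises and falls moves with the scaling.

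C. parvum changed 86 of 346 probes (24.9%) in NOS2KO spleen. Of these, 41 rose (11.8%) and 45 fell (13%). With only the 10 arrays compared in the fit, 39 probes passed. As deposited, rises made up 27.8% of 90 calls, and after median centring 65.7% of 99, against 47.7% in the main fit. The treated and control arrays did not overlap for 42 probes, with treated above control for 17 (4.91%) and below for 25 (7.23%). Among -a probes 21 of 229 rose (9.17%) and 35 fell (15.3%), while among -p probes 20 of 114 rose (17.5%) and 10 fell (8.77%). With the set as a block 64 probes passed (18.5%), 29 rises (8.38%) and 35 falls (10.1%), and 59 of the 64 were among the 86. Within set 2, 55 of 309 probes passed (17.8%), 22 rises (7.12%) and 33 falls (10.7%), and 46 of the 55 were among the 86. All 3 fits called 42 probes, 18 rises and 24 falls, and every one of the 85 called probes with a value within set 2 kept its sign there.

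**Figure D1:**
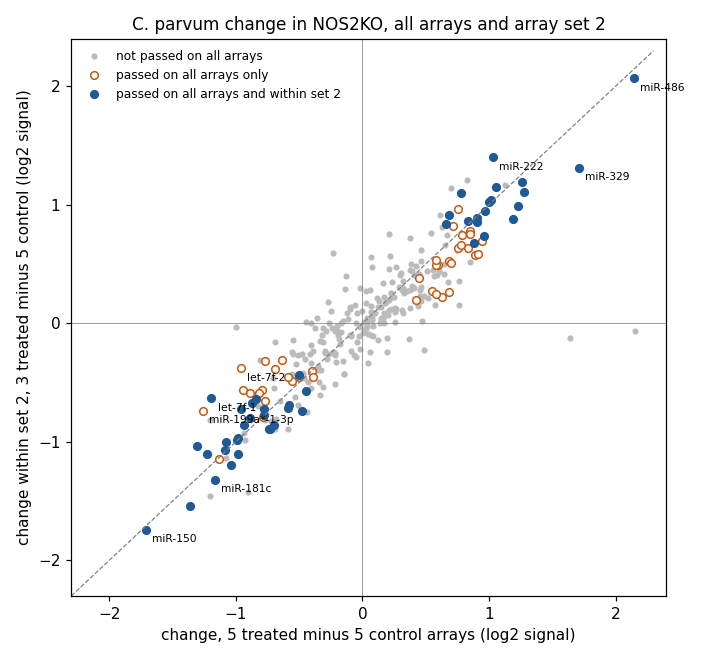
Each point is a probe. The x axis is the change over all 10 NOS2KO arrays and the y axis the change within array set 2, both in log2 signal, with the dashed line at equal change. miR-486, miR-329, miR-222, miR-150 and miR-181c lie far from 0 on both axes, while the let-7f probes and miR-199a*-1-3p lie above the line because their fall is smaller within set 2.

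Red cell miRNAs had higher means after C. parvum, but not all of them passed the test. miR-486, which is made at high level in developing red cells, had levels of 12.77, 12.82, 10.56, 11.51 and 12.77 in controls and of 14.35, 14.35, 14.51, 14.51 and 13.44 in treated mice. Controls 3 and 4 were below the other controls, treated array 5 was below the other treated arrays, and the groups did not overlap. The change was 2.15 ± 0.40, a fold of 4.43 (adjusted p = 0.000205), the largest rise that passed. It was 2.07 within set 2 and also passed with the set as a block.

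miR-451, which acts late in red cell maturation, read 12.82, 13.38, 11.83, 12.24 and 13.30 in controls and 13.06, 12.87, 14.35, 14.04 and 13.38 in treated mice. The groups overlapped, and controls 3 and 4 were again the lowest. Its change of 0.83 ± 0.34 did not pass (adjusted p = 0.0680), but it came to 1.21 in both the block fit (adjusted p = 0.0067) and set 2 (adjusted p = 0.0334), where treated arrays 3 and 4 were above every control and array 5 level with control 2. miR-144, which shares a transcript with miR-451, had no value on controls 3 and 4 and read 7.98, 7.90 and 7.59 on the others, against 8.95, 8.80, 9.56, 9.20 and 8.21 in treated mice. Every treated value of miR-144 was above every control value, yet the change of 1.12 ± 0.46 did not pass (adjusted p = 0.0680). The -p probes of miR-451 (0.999 ± 0.27, adjusted p = 0.0077, and 1.02 within set 2) and miR-486 (0.75 ± 0.28, adjusted p = 0.0470) rose. The call of the miR-486 -p probe ended within set 2 (0.96, adjusted p = 0.0763) and as deposited, and without treated array 3 or 4 or without control 1 or 4, at 0.57 to 0.67. Of the erythroid list, 1 of 3 -a probes rose, against 9.17% of all -a probes, with a median of 1.12 against −0.04. Of its -p probes 2 of 2 rose, against 17.5% of all -p probes, with a median of 0.88 against 0.20.

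Of the lymphocyte miRNAs, miR-150 and part of the miR-181 family were lower. miR-150, which restrains the transcription factor Myb in mature B and T cells, had control levels of 15.42, 15.03, 15.30, 15.17 and 15.42. Its treated levels were 13.72, 13.51, 14.21, 14.21 and 12.17. The lowest control was above the highest treated array, and treated array 5 was the lowest of all. The fall was 3.27-fold (−1.71 ± 0.28, adjusted p = 0.000108), and the change was −1.57 with the set as a block, −1.74 within set 2 and −1.36 without treated array 5.

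The miR-181 family, which tunes T cell receptor signalling in the thymus, fell in part. miR-181c read 10.32, 9.73, 9.92, 9.96 and 9.89 in controls and 9.23, 8.84, 8.57, 8.71 and 8.65 in treated mice, with no overlap. Its change was −1.17 ± 0.23 (adjusted p = 0.000299). miR-181a-5p fell from 10.39, 10.25, 10.47, 10.68 and 10.49 to 9.75, 9.56, 9.54, 9.28 and 8.98, a change of −1.04 ± 0.19 (adjusted p = 0.000172). Treated arrays of set 2 were the lowest for both, and the falls within set 2 were −1.32 and −1.19.

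The 2 miR-181b probes gave smaller values, although miR-181b matches miR-181a at 12 of 15 positions beyond the seed. miR-181b-2 fell by 0.48 ± 0.18 (adjusted p = 0.0462), and miR-181b-1 changed by −0.34 ± 0.26 (adjusted p = 0.340). The call of miR-181b-2 ended in 7 of the 10 fits that left out 1 array (−0.41 to −0.49) and after median centring (−0.37), while it passed at −0.74 within set 2. miR-213, which RefSeq assigns to the Mir181a-1 gene, fell by 0.44 ± 0.15 and also passed with the set as a block and within set 2. miR-181a-2 went the other way on its -p probe, from 11.04 to 11.13 in controls to 11.34 to 12.01 in treated mice (0.66 ± 0.25, adjusted p = 0.0469). It did not pass in the block fit (0.62), as deposited (0.54) and in 9 of 10 fits without 1 array (0.60 to 0.70). miR-155, which is induced in activated lymphocytes and macrophages, changed by −0.28 ± 0.23 and did not pass. It read 13.93 on treated array 5 and 11.93 to 12.98 on the other treated arrays, around a control range of 12.57 to 13.44. Of the lymphoid list, 4 of 6 -a probes fell, against 15.3% of all -a probes, and none rose (median −0.76 against −0.04), with 4 falls also with the set as a block and within set 2.

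All 5 -a probes of the miR-29 family fell, against 15.3% of all -a probes. miR-29 is known to lower collagens and DNA methyltransferases, and interferon gamma in T cells. miR-29c read 10.92, 10.15, 10.68, 10.86 and 10.84 in controls and 9.48, 9.89, 9.48, 9.86 and 9.83 in treated mice (−0.98 ± 0.20, adjusted p = 0.000398). miR-29b read 11.61, 10.92, 11.48, 11.43 and 11.43 in controls and 10.23, 9.90, 10.59, 10.64 and 10.73 in treated mice (−0.96 ± 0.18, adjusted p = 0.000235). Control 2 was the lowest control of both, and no treated array reached it.

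miR-29a changed by −0.78 ± 0.17, miR-29b-1 by −0.87 ± 0.16 and miR-29b-2 by −0.84 ± 0.15. The family median was −0.87 over all arrays, −0.77 with the set as a block and −0.72 within set 2, against a median of −0.04 over all tested -a probes. All 5 probes passed in each of these 3 fits. By probe name both genomic pairs were represented, miR-29a with miR-29b-1 on chromosome 6 and miR-29c with miR-29b-2 on chromosome 1. In RefSeq both miR-29b genes give the same mature miR-29b-3p. Whether the miR-29b, miR-29b-1 and miR-29b-2 probes tell these genes apart was not tested. miR-29c went the other way on its -p probe (0.55 ± 0.19, adjusted p = 0.0358), but its call ended with the set as a block (0.45), within set 2 (0.27), as deposited (0.36), and without control 3 (0.43) or treated array 1 (0.47) or 2 (0.41). The -p probes of miR-29a (0.37 ± 0.21) and miR-29b-2 (0.31 ± 0.20) did not pass.

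**Figure D2:**
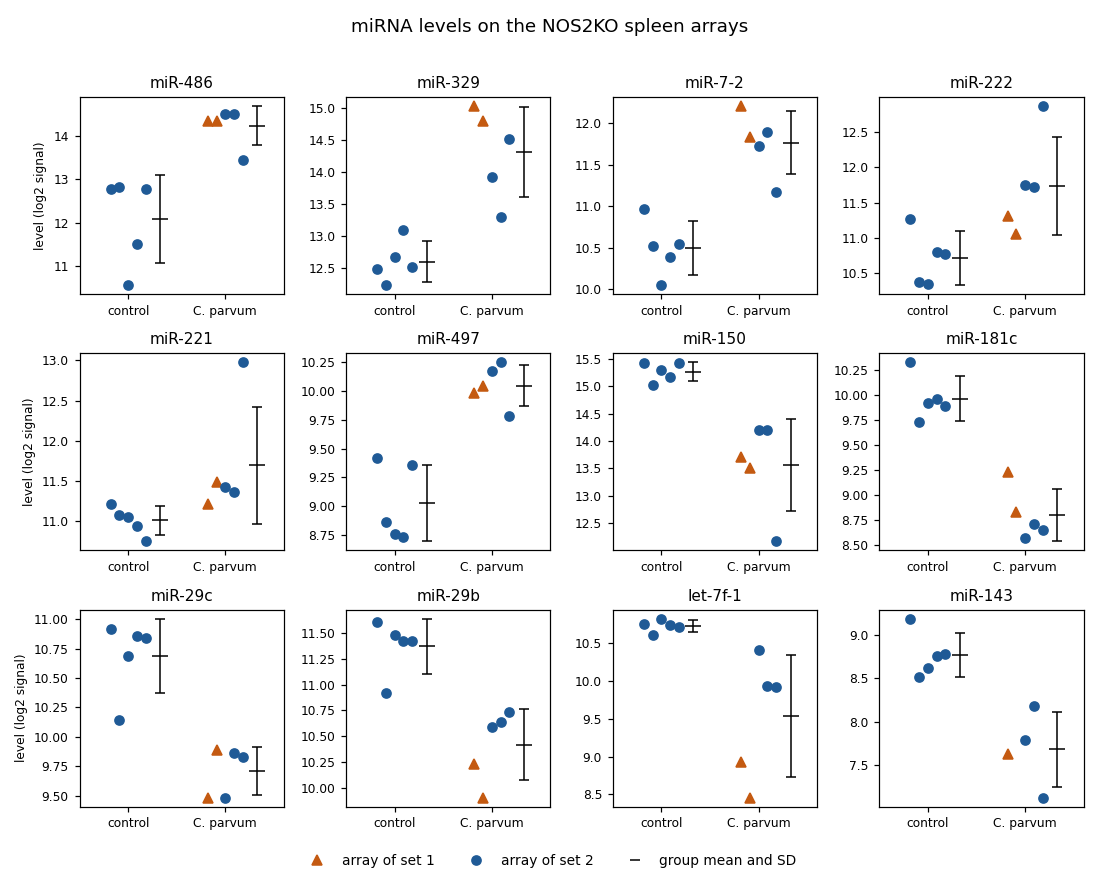
Normalized log2 levels of 12 miRNAs on each of the 10 NOS2KO arrays, with triangles for set 1, circles for set 2, and a bar for the group mean and SD (each panel has its own y range, which does not start at 0). Controls and treated arrays do not overlap for miR-486, miR-150, miR-181c, miR-29c or miR-29b. Treated array 5, the last of its group, stands apart for miR-221, miR-222 and miR-150, and the 2 triangles are lowest for let-7f-1.

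miR-221 and miR-222 rose. These neighbours lower the cell cycle inhibitor p27 and the receptor Kit. miR-222 read 11.28, 10.37, 10.35, 10.80 and 10.78 in controls and 11.31, 11.06, 11.76, 11.72 and 12.87 in treated mice. Treated arrays of set 2 were above all controls, and treated array 2 was below control 1. The change was 1.03 ± 0.23 (adjusted p = 0.00134), 1.40 within set 2 and 0.75 without treated array 5, and passed in all 3 fits.

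miR-221 read 11.22, 11.08, 11.06, 10.94 and 10.75 in controls and 11.22, 11.48, 11.43, 11.36 and 12.98 in treated mice. Most of its mean change came from treated array 5, which was 1.49 above the next array. The change was 0.68 ± 0.20 (adjusted p = 0.0107). It was 0.36 (adjusted p = 0.0390) without treated array 5 and lost its call as deposited (0.46, adjusted p = 0.0939). miR-221 went the opposite way on its -p probe, from 10.99, 10.03, 10.41, 10.59 and 11.08 to 9.68, 9.36, 9.85, 9.68 and 7.71, with treated array 5 again the extreme (−1.36 ± 0.31, adjusted p = 0.00134). Of 70 names with both an -a and a -p probe tested, 7 had both called, 5 in the same direction and 2, miR-221 and miR-29c, in opposite directions.

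In the inflammation list, 3 of 11 -a probes rose and none fell, against 9.17% rises and 15.3% falls among all -a probes, and the median was −0.15. The list is not limited to miRNAs that inflammatory signals induce. It also holds miR-125b, whose -a probes changed by −0.53, −0.70 and −0.56 and did not pass. miR-9-3-5p, which lowers the NF-kB subunit gene Nfkb1, rose from 9.04, 8.16, 8.29, 8.79 and 8.71 to 10.52, 9.98, 9.90, 9.70 and 8.82 (1.19 ± 0.23, adjusted p = 0.000299). Treated array 5 fell within the control range. miR-212 read 10.12, 9.40, 9.05, 9.56 and 10.27 in controls and 10.68, 10.25, 10.68, 10.82 and 10.12 in treated mice (0.83 ± 0.21, adjusted p = 0.0032). Its neighbour miR-132, which shares a transcript with it, changed by −0.36 ± 0.30 and did not pass.

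miR-21, a miRNA of many inflamed and growing tissues, read 11.83, 11.22, 11.69, 11.76 and 11.61 in controls and 12.09, 11.76, 12.87, 12.28 and 13.01 in treated mice. Treated array 2 reached only the level of the higher controls. The change was 0.78 ± 0.21 (adjusted p = 0.0055), 1.10 within set 2, and 0.59 as deposited, where it missed the threshold (adjusted p = 0.0667). miR-146, a feedback inhibitor of NF-kB signalling, changed by 0.21 ± 0.16, and its treated range of 13.63 to 14.04 overlapped its control range of 13.22 to 13.72. All 3 rises passed in the block fit and within set 2.

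Only miR-497 rose in the miR-15/16 seed family, and no member fell. The family is known to slow the cell cycle. miR-497 read 9.42, 8.87, 8.76, 8.73 and 9.36 in controls and 9.98, 10.05, 10.17, 10.25 and 9.79 in treated mice, with no overlap (1.02 ± 0.17, adjusted p = 0.000108). The change was 0.99 with the set as a block and 1.04 within set 2. miR-195, its close neighbour, read 12.35, 12.13, 12.28, 12.40 and 12.35 in controls and 11.13, 11.31, 12.24, 12.04 and 11.25 in treated mice. Its change of −0.71 ± 0.29 did not pass (adjusted p = 0.0702), and it was −0.32 with the set as a block. miR-16-1 (−0.47 ± 0.22), miR-16-2 (−0.41 ± 0.23), miR-15a (−0.36 ± 0.21) and miR-15b (−0.24 ± 0.22) did not pass. Within set 2, miR-15a was 0.05 and miR-15b 0.11, a turn of sign.

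The let-7 family, a brake on proliferation and on Lin28, gave 3 falls among 11 -a probes, against 15.3% of all -a probes, and no rise, with a median of −0.55. let-7f-1 read 10.75, 10.61, 10.82, 10.73 and 10.71 in controls and 8.93, 8.46, 10.41, 9.94 and 9.92 in treated mice (−1.19 ± 0.28, adjusted p = 0.00201). Treated arrays 1 and 2, of set 1, were the lowest 2 and below all other arrays of both groups. WT controls, which were all in set 1, read 8.31 to 9.85 for the same probe. WT treated arrays, also all in set 1, read 9.34 to 9.60, and the DKO controls of set 1 read 9.60 to 10.49. With the set as a block the change was −0.74 (adjusted p = 0.0115), and within set 2 it was −0.63 (adjusted p = 0.0166), where all 3 treated arrays were below all controls.

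let-7f-2 (−0.96 ± 0.29) and let-7g (−0.63 ± 0.21) lost their calls with the set as a block (−0.50 and −0.29) and without treated array 1 (−0.78 and −0.50) or 2 (−0.70 and −0.52), and both also within set 2 (−0.38 and −0.31). let-7g did so also without control 1 (−0.57) and after median centring (−0.51). The family median was −0.16 with the set as a block and −0.14 within set 2, and 1 of 11 fell in each. Over all tested probes, of both endings, 10.1% and 10.7% fell in these fits. The share among -a probes alone was not computed for them. The mature products of let-7f-1 and let-7f-2 are the same sequence in RefSeq, and their control levels differed, at 10.61 to 10.82 and 11.17 to 11.58.

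The miR-99 seed family was split. miR-99a, which with miR-100 lowers the kinase mTOR, read 9.15, 8.56, 9.10, 8.90 and 9.23 in controls and 7.92, 7.97, 8.05, 7.55 and 8.79 in treated mice (−0.93 ± 0.26, adjusted p = 0.0083). Treated array 5 lay within the control range. miR-100 fell by 0.82 ± 0.27 (adjusted p = 0.0237) but not in the block fit (−0.73, adjusted p = 0.0717) or within set 2 (−0.59), and lost its call without treated array 1 (−0.74) or 2 (−0.73) or control 3 (−0.78). miR-99b, which has the same seed and is the same as miR-99a at 11 of 14 positions beyond it, changed by 0.13 ± 0.16. let-7c-1, next to miR-99a (−0.41 ± 0.24), and let-7a-2, next to miR-100 (−0.55 ± 0.24), did not pass.

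**Figure D3:**
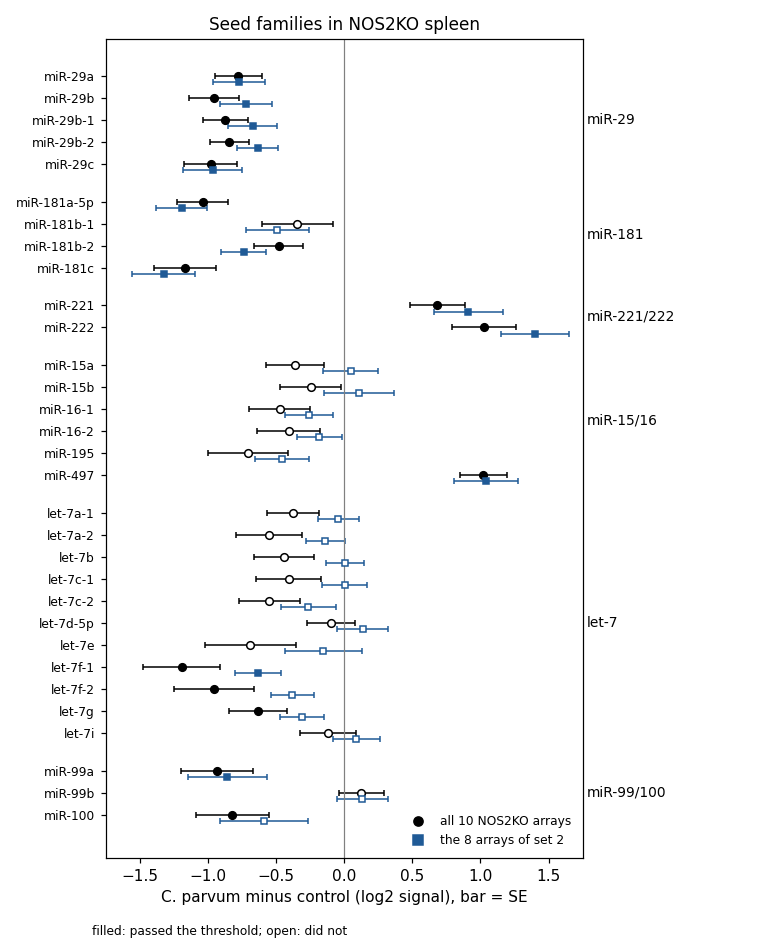
Change ± SE of the -a probes of 6 seed families, over all 10 NOS2KO arrays (circles) and over the 8 arrays of set 2 (squares), filled where the change passed the threshold. All miR-29 probes lie below 0 and are filled in both fits, miR-497 and miR-99b lie apart from their families, and let-7f-1 is the let-7 probe that is filled in both fits.

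The myeloid list gave 3 falls and no rise among 6 -a probes, against 15.3% falls among all -a probes, with a median of −0.34. In the block fit 1 fell. miR-223, the abundant miRNA of granulocytes, read 14.21, 14.66, 14.51, 14.66 and 14.51 in controls and 14.21, 14.21, 15.17, 15.03 and 15.03 in treated mice. Treated arrays 1 and 2 were at the level of the lowest control and the other 3 were above every control. Its change of 0.22 ± 0.19 did not pass over all arrays (adjusted p = 0.400) and passed within set 2 at 0.57 (adjusted p = 0.0345).

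miR-142, which is found across blood cells, fell on both arms, miR-142-3p by 1.08 ± 0.33 (adjusted p = 0.0162) and miR-142-5p by 0.59 ± 0.19 (adjusted p = 0.0215). miR-142-3p read 9.54, 10.01, 9.57, 9.94 and 9.68 in controls and 8.41, 8.68, 9.20, 9.50 and 7.55 in treated mice, and treated array 5 was the lowest. Neither passed with the set as a block (−0.75 and −0.49), and within set 2 miR-142-3p did (−0.998) and miR-142-5p did not (−0.46). The call of miR-142-3p ended without treated array 5 (−0.80), and that of miR-142-5p without treated array 1 (−0.54), 2 (−0.53) or 5 (−0.47) and after median centring (−0.46). miR-24-1-3p fell by 0.50 ± 0.14 and passed with the set as a block, but not within set 2 (−0.46, adjusted p = 0.0925). miR-24-2 rose on its -p probe, from 9.92, 9.86, 9.54, 9.92 and 9.79 to 10.99, 10.99, 10.54, 10.75 and 10.17, with no overlap (0.88 ± 0.18, adjusted p = 0.000470).

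Stromal and smooth muscle miRNAs were lower. Of 6 -a probes tested 5 fell, against 15.3% of all -a probes, with a median of −0.86. In the block fit 4 fell, and within set 2 there were 2. miR-143 and miR-145, which mark smooth muscle and are made from neighbouring genes, fell by 1.09 ± 0.26 (adjusted p = 0.0028) and 0.77 ± 0.19 (adjusted p = 0.0032). miR-143 read 9.19, 8.52, 8.62, 8.76 and 8.78 in controls, and 7.63, 7.79, 8.18 and 7.13 on the 4 treated arrays with a value. miR-145 read 12.04, 11.61, 12.09, 12.01 and 12.24 in controls and 11.34, 10.94, 11.22, 11.65 and 10.96 in treated mice. Both passed with the set as a block and within set 2.

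The 3 probes of miR-199a*-3p, a miRNA of mesenchymal cells, fell by 1.26, 0.94 and 0.77. miR-199a*-1-3p read 9.85, 9.10, 9.70, 9.75 and 9.64 in controls and 7.74, 7.42, 8.70, 8.90 and 8.998 in treated mice, with the 2 arrays of set 1 the lowest. Within set 2 the 3 changes were −0.74, −0.57 and −0.32 and none passed. The call of miR-199a*-2-3p ended with the set as a block (−0.48) and without treated array 1 (−0.62) or 2 (−0.58) or control 1 (−0.69). miR-214, a neighbour of miR-199a-2, changed by −0.17 ± 0.16 and was 0.00 within set 2. The probe of miR-199a-2-5p, whose name ends in -ap, changed by 0.16 ± 0.26 and did not pass (adjusted p = 0.685). miR-126-5p, from a gene of endothelial cells and blood progenitors, fell by 0.70 ± 0.22 and was −0.86 within set 2, and its adjusted p was 0.0508 without treated array 3 (−0.60). A further probe named for this arm, miR-126*-5p, changed by −0.33 ± 0.16 and did not pass (adjusted p = 0.126). Nor did it pass with the set as a block (−0.41) or within set 2 (−0.40). miR-123 fell on its -a probe (−0.59 ± 0.16) and on its -p probe, from 9.47, 8.68, 9.30, 9.47 and 9.34 to 7.75, 7.29, 8.84, 8.43 and 7.39 (−1.31 ± 0.30, adjusted p = 0.00134). Both miR-123 probes passed with the set as a block and within set 2.

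Several miRNAs of the imprinted Dlk1-Dio3 cluster rose. The cluster is a long array of miRNA genes on chromosome 12, active from the maternal copy and best known from embryo, placenta and brain. miR-370, also of the cluster, was left out of the counts and medians because it defines the array sets. It changed by −1.0 ± 0.47 (adjusted p = 0.108) and by −0.03 within set 2. Of the other 18 -a probes tested 5 rose, against 9.17% of all -a probes. Of 9 -p probes 2 rose, against 17.5% of all -p probes, and none fell. In the block fit 3 of the -a probes rose. miR-329 read 12.49, 12.24, 12.68, 13.10 and 12.52 in controls and 15.03, 14.80, 13.93, 13.30 and 14.51 in treated mice, so treated array 4 was close to control 4 and the others were well above (1.71 ± 0.35, adjusted p = 0.000429). The change was 1.44 with the set as a block and 1.31 within set 2, and passed in both. miR-487b rose by 0.95 ± 0.21, miR-667 by 0.69 ± 0.18 and miR-668 by 0.89 ± 0.28.

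miR-543 rose on both probes, by 0.58 ± 0.20 and, on the -p probe, from 14.04, 15.17, 14.66, 14.35 and 14.66 to 15.73, 15.42, 15.73, 15.30 and 15.55 (0.97 ± 0.23, adjusted p = 0.00201). miR-323 on its -p probe read 8.57, 8.31, 8.78, 9.15 and 8.51 in controls and 9.40, 9.75, 10.19, 9.57 and 9.68 in treated mice, with no overlap (1.05 ± 0.28, adjusted p = 0.0055). Within set 2, miR-329 and the -p probes of miR-323 and miR-543 passed, and miR-487b (0.69, adjusted p = 0.0639), miR-667 (0.52), miR-668 (0.58) and the -a probe of miR-543 (0.49) did not. miR-668 (0.79) and the -a probe of miR-543 (0.51) also lost their calls with the set as a block, and miR-668 without treated array 1 (0.71) or control 3 (0.70). With miR-370 left out, the other 20 tested probes of the cluster did not pass, from −0.47 for miR-410 to 0.91 for miR-382. The median was 0.44 for -a and 0.32 for -p probes, against −0.04 and 0.20 over all tested probes of each ending.

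Other rises among the largest were those of miR-7-2, miR-702, miR-671, miR-483, miR-330 and miR-101b. miR-7-2, whose mature form lowers the epidermal growth factor receptor, read 10.96, 10.52, 10.05, 10.39 and 10.54 in controls and 12.21, 11.83, 11.72, 11.90 and 11.17 in treated mice, with no overlap (1.27 ± 0.24, adjusted p = 0.000205). miR-702 rose from 10.47, 9.90, 9.94, 10.32 and 10.37 to 11.87, 11.69, 11.15, 11.69 and 10.75, again with no overlap (1.23 ± 0.22, adjusted p = 0.000147). Treated array 5 was the lowest treated array of both, and both passed with the set as a block and within set 2 (1.10 and 0.99). miR-671 on its -p probe was dim in controls, with 6.23, 5.28, 6.69 and 6.33 on 4 arrays, and read 7.13 to 7.49 on the 5 treated arrays (1.26 ± 0.28, adjusted p = 0.00178, but adjusted p = 0.0583 as deposited), and 1.19 within set 2, where it passed. The -p probes of miR-330 (0.91 ± 0.21) and miR-101b (0.90 ± 0.18) rose and passed within set 2. miR-483 rose on its -p probe (0.96 ± 0.21, and 0.73 within set 2, where it passed) and on its -a probe (0.91 ± 0.30), which did not pass in the block fit (0.61), within set 2 (0.59), and without treated array 1 (0.73) or 2 (0.85) or control 3 (0.85).

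Other falls among the largest were those of miR-297b, miR-703, miR-699, miR-374-5p and miR-296. miR-297b on its -p probe read 9.77, 9.60, 9.75, 10.03 and 10.19 in controls and 8.35, 8.55, 8.51, 8.58 and 9.20 in treated mice, with no overlap and treated array 5 the highest of its group (−1.23 ± 0.20, adjusted p = 0.000107, and −1.10 within set 2, where it passed). miR-703 read 10.19, 10.71, 10.73, 11.04 and 10.61 in controls and 9.32, 9.79, 8.27, 8.98 and 11.28 in treated mice. Treated array 5 was above every control. The change of miR-703 was −1.13 ± 0.34 (adjusted p = 0.0153), and −1.57 without treated array 5. It missed the threshold within set 2 (−1.15, adjusted p = 0.0996) and without treated array 3 (−0.82, adjusted p = 0.0659).

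miR-699 read 9.86, 9.54, 9.42, 9.57 and 9.56 in controls and 8.51, 9.08, 7.60, 8.30 and 9.57 in treated mice, so treated array 5 was at the control level (−0.98 ± 0.30, adjusted p = 0.0156, and −0.73 without treated array 3, adjusted p = 0.0650). It passed within set 2 (−1.101). miR-374-5p (−0.99 ± 0.37) and the -p probe of miR-296 (−1.501 ± 0.55) passed narrowly (both adjusted p = 0.0487), with 3 treated values each, and both missed the threshold with the set as a block. The miR-296 probe was dim, at 7.46, 6.05 and 8.06 on the controls with a value and 5.29, 6.23 and 5.55 on the treated arrays. With its missing cells set to a low value, the change was −0.90 (adjusted p = 0.378). miR-374-5p passed within set 2, where miR-296 could not be tested. Leaving out 1 array ended the call of miR-374-5p in 6 of the 7 fits that could test it (−0.93 to −1.04), and that of miR-296 in 3 of 4 (without treated array 2, control 3 or control 4, arrays that had no value for it). miR-26b and miR-26a-1, abundant miRNAs of most tissues, fell by 0.50 ± 0.11 and 0.39 ± 0.14. miR-26b read 15.98, 15.73, 15.73, 15.73 and 15.73 in controls and 15.17, 15.17, 15.30, 15.42 and 15.30 in treated mice, with no overlap, and was −0.44 within set 2, where it passed and miR-26a-1 (−0.45) did not.

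Lists for other roles held few calls. Of 7 -a probes of p53-responsive miRNAs 1, miR-145, fell, near the share of all -a probes. miR-34a, the best known target of p53, read 7.69, 7.13, 7.66, 7.23 and 7.46 in controls, and 6.23, 6.22, 5.87 and 8.11 on treated arrays 1, 3, 4 and 5. Its change of −0.83 ± 0.34 did not pass (adjusted p = 0.0702) and was −1.33 without treated array 5, where it passed. In miR-17-92 and its paralogs, a group that promotes growth, miR-25 (0.58 ± 0.21) and miR-20b (0.45 ± 0.17) rose and miR-19b-1 (−0.73 ± 0.27) fell among 10 -a probes, against 9.17% rises and 15.3% falls over all -a probes, and the -p probe of miR-93 rose (0.42 ± 0.15). None of these 4 passed with the set as a block, within set 2 only miR-19b-1 did (−0.89), and each lost its call in 6 or more of the 10 fits without 1 array, within 0.44 to 0.60, 0.39 to 0.45, −0.54 to −0.76 and 0.32 to 0.43. miR-25 read 13.15, 13.06, 12.68 and 12.68 on treated arrays 1 to 4 and 11.45 on array 5, below the control range of 11.72 to 12.40. The hypoxia miRNA miR-210 rose on its -p probe (0.68 ± 0.19) but not in the block fit (0.51, adjusted p = 0.0543), within set 2 (0.27), as deposited (0.43) or without treated array 1 (0.50).

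The progenitor and megakaryocyte list had 3 falls, miR-99a, miR-100 and miR-126-5p, and no rise among 16 -a probes, a share near the 15.3% of all -a probes, with a median of −0.33. Markers of other tissues were measured unevenly. miR-375, miR-128a and miR-1 had values on every array of both groups, with control means of 9.42, 10.35 and 9.53. The liver miRNA miR-122a had values on 3 control and 1 treated array and was not tested. Of the tested probes for pancreas (3), nervous system (2) and striated muscle (5), the -p probe of miR-208 alone passed (0.58 ± 0.22, adjusted p = 0.0487), and it did not with the set as a block or within set 2.

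A further 14 probes were measured on at least 4 of 5 arrays of one group and on at most 1 of the other. In 8 of them the treated group had the values and in 6 the controls. miR-412 had a value on all 5 treated arrays (mean 6.88) and 1 control. miR-124a and miR-141 had values on all 5 controls (means 7.13 and 6.44) and on 1 treated array. The -p probe of miR-122a and miR-199b had 4 treated values and none in controls, and miR-671 and miR-199a-1-5p had 4 control values and none in treated mice. All of these means are at the dim end of the scale, and no change was computed for them.

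The array sets bore unevenly on the calls. With the set as a block 27 of the 86 calls were lost. Among them were let-7f-2, let-7g, miR-142-3p, miR-483, miR-199a*-2-3p and the -p probe of miR-296. Over the 85 called probes with values in both fits, the median share of the change that remained within set 2 was 90%. It was 39.7% for let-7f-2, 49.2% for let-7g and 39% for the -p probe of miR-210, whose set 1 treated arrays read 11.25 and 11.01 against 9.73 to 10.30 on the others. The part of the sets in these changes was not tested beyond these fits.

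The differences between genotypes asked whether the response without NOS2 differs from that of spleens with NOS2, without p53, or without both. No arrays are shared between the effects compared. Over the 291 probes tested in all 4 genotypes, the median size of the change was 0.42 in NOS2KO, 0.44 in WT, 0.43 in p53KO and 0.26 in DKO. The C. parvum change passed for 33.5% of the tested probes in WT, 28.4% in p53KO and 13.3% in DKO (7.43% rises and 5.84% falls).

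Against WT, 1 of 305 probes differed (0.328%), with 37 at an unadjusted p under 0.05. It was the -p probe of miR-196a-2, a miRNA of the Hox clusters. In NOS2KO it read 8.44, 7.78, 8.11, 8.39 and 7.92 in controls and 9.07, 9.57, 7.98, 8.72 and 8.15 in treated mice, which overlapped (0.57 ± 0.27, adjusted p = 0.108). In WT it read 9.61, 9.30, 9.50, 9.47 and 9.64 in controls and 8.46, 8.40, 8.08, 8.92 and 7.95 in treated mice, which did not overlap (−1.14 ± 0.27). The NOS2KO effect minus the WT effect was 1.71 ± 0.38 (adjusted p = 0.0212), and 1.46 in the block fit (adjusted p = 0.0285). Within set 2 the NOS2KO change of this probe was 0.15. As deposited and after median centring no probe differed, and none did when NOS2KO treated array 1 or 2, NOS2KO control 2 or 5, or WT treated array 3 was left out.

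With the set as a block 3 probes differed from WT (0.984%). miR-672 rose in WT on its -p probe (1.47 ± 0.25), where treated arrays read 10.84 to 12.13 and controls 9.56 to 10.25. In NOS2KO its groups overlapped at 10.45 to 11.06 and 10.01 to 11.17 (0.21 ± 0.25). The difference was −1.51 with the block (adjusted p = 0.0186) and −1.26 ± 0.36 without it (adjusted p = 0.0702). miR-341 was the third (1.06, adjusted p = 0.0285). The -p probe of miR-699 (1.17 ± 0.32), let-7f-1 (−1.48 ± 0.40) and miR-293 (−0.69 ± 0.20) were next in the fit without the block (each adjusted p = 0.0702). All WT arrays were in set 1, and the NOS2KO change of let-7f-1 was −1.19 without the block and −0.74 with it.

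The changes of miR-486 (NOS2KO minus WT −0.20 ± 0.56), miR-7-2 (−0.06 ± 0.33), miR-21 (−0.11 ± 0.29) and miR-29c (−0.08 ± 0.28) did not pass the test of the difference from WT, which does not show that they are alike. miR-150 fell by 0.63 ± 0.28 in WT, with a difference of −1.07 ± 0.40 (adjusted p = 0.217).

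Against p53KO 0 of 311 probes differed by limma's test (0%), with 15 at an unadjusted p under 0.05. The smallest p belonged to the -p probe of miR-196a-2 (1.25 ± 0.39, adjusted p = 0.528), which changed by −0.68 ± 0.29 in p53KO. Next came the -p probe of miR-532 (0.90 ± 0.28), miR-293 (−0.56 ± 0.20), miR-25 (0.78 ± 0.31) and the -p probe of let-7b (1.32 ± 0.51). miR-486 rose by 2.88 ± 0.42 and miR-150 fell by 0.99 ± 0.30 in p53KO.

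Against DKO, 23 of 340 probes differed (6.76%), 10 with a higher (2.94%) and 13 with a lower (3.82%) NOS2KO effect. With the set as a block, and with the 4 groups alone in the fit, 0 differed, with 32 at an unadjusted p under 0.05 in the former. In DKO, 5 of 6 controls were in set 1 and 5 of 6 treated arrays in set 2. The -p probe of miR-24-2 changed by 0.88 ± 0.18 in NOS2KO and −0.21 ± 0.16 in DKO, a difference of 1.09 ± 0.24 (adjusted p = 0.0196, and 0.92 with the block, adjusted p = 0.205). miR-7-2 differed by 1.28 ± 0.32, and its DKO controls (10.71 to 11.87) and treated arrays (10.45 to 11.48) overlapped. For this probe the DKO control of set 2 read 10.89 and the DKO treated arrays of set 2 read 10.99 to 11.48. The -p probe of miR-323 differed by 1.47 ± 0.38 and miR-218 by −1.86 ± 0.46. miR-370 differed by −2.71 ± 0.64 and is counted among the 23 probes, but it defines the sets, and its difference was −0.17 with the block.

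**Figure D4:**
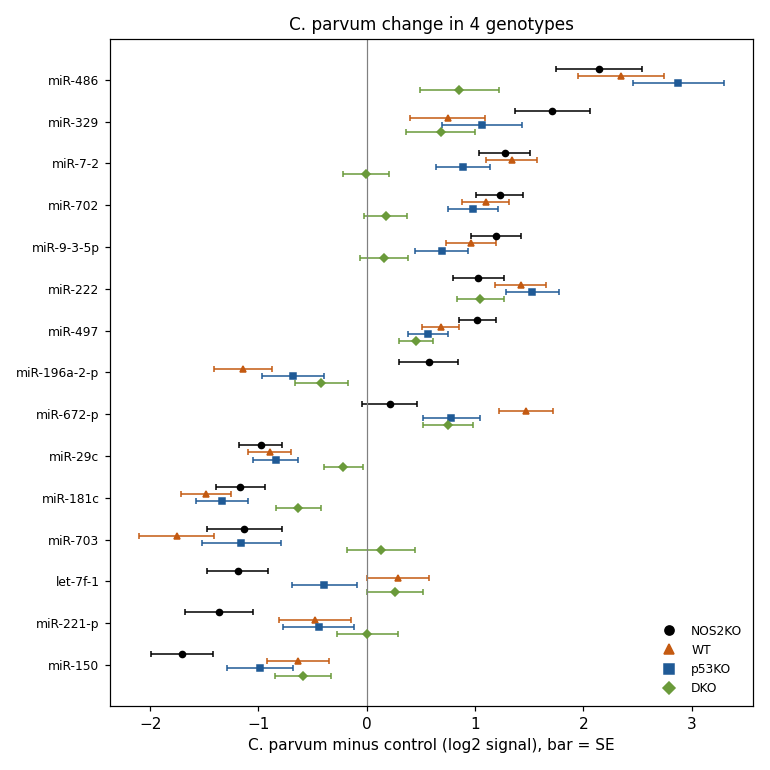
C. parvum change ± SE in log2 signal for 15 miRNAs in NOS2KO, WT, p53KO and DKO spleen, from 1 fit of all 41 arrays. The NOS2KO points of the -p probe of miR-196a-2 lie at 0.57 against −1.14 in WT, and those of miR-486, miR-29c and miR-181c lie within about 1 SE of WT or p53KO.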

How the data were processed

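The authors deposited log2 values of 637 probes on 41 one-channel arrays, with some cells empty. The log base was inferred from the values. How signals were scanned, corrected and normalized before deposit is not stated per the labels. No per-sample column was left out (0). Samples were grouped by the genotype and treatment labels. Quantile normalization matched ranks starting at each array's brightest probe, so that empty cells counted as dimmest and remained empty. All 8 group means were fitted with limma 3.58.1 in R 4.3.3 (lmFit, eBayes), with Benjamini-Hochberg adjustment per comparison at 0.05 and at least 3 values per group. The procedure was tested on simulated data. Array sets follow the deposited value of miR-370 (limit 10). Labels do not say that each array is a separate mouse, so p-values measure the spread between these arrays, and 5 arrays per group limit the precision. Named were the 15 largest rises and falls past the threshold (1 probe per miRNA), up to 6 members per list, the 5 smallest p per difference, and up to 6 calls lost with the set block. Members and lists were chosen with earlier results of these data known. Same-numbered treated and control arrays deviated together with correlations of −0.39 to 0.23, so the numbers do not pair them. Of the tested probes 308 matched 1 RefSeq miRNA gene (GRCm38.p6), and 29 of 33 mature sequences looked for were found.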

Additional observations from a re-analysis of the deposited data

Results flagged for a closer look

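Over 69 described probes in the 2 NOS2KO groups, 10 single arrays stood far from the others of their group by Dixon's criterion. Chance flags about 1 in 20 groups, and these are 7.5% of the groups of 4 or 5 values. Treated array 5 gave 6 of the 10. It read 12.98 for miR-221 against 11.22 to 11.48 on the other treated arrays, and 7.71 for the -p probe of miR-221 against 9.36 to 9.85. It read 11.45 for miR-25 against 12.68 to 13.15, 13.44 for miR-486 against 14.35 to 14.51, 7.13 for the -p probe of miR-671 against 7.40 to 7.49, and 9.20 for the -p probe of miR-297b against 8.35 to 8.58. Control 2 was low at 8.68 for the -p probe of miR-123, at 9.10 for miR-199a*-1-3p and at 10.92 for miR-29b. Control 3 was low at 8.41 for the -p probe of miR-29c.

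The response differed between genotypes by the test of the difference for the -p probe of miR-196a-2, by 1.71 against WT. Against DKO it differed for the -p probe of miR-24-2 (1.09), miR-7-2 (1.28), miR-218 (−1.86) and the -p probe of miR-323 (1.47). The probe of miR-370 was past the threshold too (−2.71), but its own value assigns each array to a set. DKO controls and DKO treated arrays lay mostly in different sets, so its test cannot separate a response from the set. None of these 5 differences passed in the block fit.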

How the results depend on the processing

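Against the 86 calls in NOS2KO, 55 probes passed within set 2 and 54 when set 2 was normalized alone (an alternative added after seeing the data). With only the 10 arrays compared 39 passed, 37 of them among the 86, and 18 with the set as a block as well. The first of these fits ended 25 of the 60 described calls, those of miR-21, miR-212, miR-221 and miR-222 included, and the second 44. Fits without 1 array gave 62 (without treated array 1) to 113 (without treated array 5). Of 60 described calls, 38 passed in all 10 such fits. The replicate block gave 85 calls, 80 of them among the 86, and 4 of the 60 described calls were lost. Missing cells at a low value ended 11 of the 60, those of miR-9-3-5p and the -p probes of miR-123 and miR-221 included, array weights 2, and a random block for the set 11. Against WT the 1 difference became 0 as deposited or median-centred, 3 in the fit with the array set as a block, and 0 to 6 (without NOS2KO treated array 3) without 1 array. Against p53KO the 0 became 1 with missing cells at a low value and 0 to 1 without 1 array (1 without treated array 5). Against DKO the 23 became 8 when median-centred, 0 in the block fit, 63 with array weights, 0 with only the 4 groups, and 9 (without NOS2KO treated array 1 or 2) to 37 (without DKO treated array 6) without 1 array. Some values that had not passed turned sign, and within set 2 those of miR-15b (0.11) and 4 let-7 probes were among them. miR-15a was 0.0474 within set 2 and with the 10 arrays and the block, and 0.0565 with set 2 normalized alone. miR-214 was 2e-04, 2e-04 and 3e-04 in the same fits. The -p probe of miR-194-1 was −0.29 with the set as a block and −0.42 with the 10 arrays and the block. No described call turned sign in any alternative run. The cause of these shifts was not tested, other than that fewer arrays entered the smaller fits.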
